A study of Mus musculus with 12 samples.

Results

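The response to rosiglitazone was measured in fat cells grown from mouse inguinal adipose precursor cells after the precursors had been exposed to 4-hydroxytamoxifen. It is the difference between 3 Affymetrix arrays labelled 4OHT_Rosi and 3 labelled 4OHT, which are 6 of the 12 arrays of the series, taken over every gene that a probe set of a single gene symbol measured, 22180 genes in all. Every culture carried the genotype R26Cre/Prdm16floxEx9, a Cre recombinase at the Rosa26 locus together with a floxed exon 9 of Prdm16. During growth the cells were kept for 3 days with 4-hydroxytamoxifen at 1 uM or with the vehicle ethanol, and inducible forms of Cre are switched on by this ligand. The series calls the first kind knockout and the second wild type, although the ethanol cells also carry the floxed allele and the Cre. All groups were then differentiated in medium that held isobutylmethylxanthine (0.5 uM), insulin (20 nM), dexamethasone (1 uM), T3 (1 nM), indomethacin (125 nM) and FBS (10%). Rosiglitazone at 1 uM is given in the sample labels for the groups 4OHT_Rosi and EtOH_Rosi and not for 4OHT and EtOH, while a protocol text shared by all samples also mentions it. The grouping here follows the sample labels. Each group had 3 arrays hybridised from 250 ng of total RNA. No label says that the replicates were separate cultures, so the error behind every p-value is the array-to-array spread, which may be technical.

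Rosiglitazone is a thiazolidinedione, a synthetic ligand of the nuclear receptor PPARγ. PPARγ pairs with a retinoid X receptor on direct repeats of a hexamer spaced by a single base, and it switches on the genes of lipid storage, lipid release and insulin response that make a fat cell. Prolonged treatment of white fat precursors with such ligands is known to raise part of the thermogenic program of brown fat, and PRDM16, a zinc finger coregulator, is known for its role in that program.

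Values are log2 signals of probe sets as deposited, differences are on the log2 scale with the standard error (SE) of the linear model, and a gene was called where limma's adjusted p (Benjamini-Hochberg over all 22180 genes) was under 0.05. Array medians lay between 5.97 and 6.05 and the median gene had a level of 6.60. Arrays of the same group correlated across genes at 0.996 to 0.998. One array stood apart: on the third principal component, which carried 5.67% of the variance, 4OHT_Rosi 3 lay at 16.03 and the other 11 arrays between -8.95 and 7.98. Without it, 2384 genes were called higher with rosiglitazone and 2839 lower, against 2574 and 2693 with it. Lists whose value rests on this array are given with and without it below.

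Prdm16, the targeted gene, was read at 6.33, 6.45 and 6.59 in 4OHT and at 6.63, 6.70 and 6.63 in 4OHT_Rosi. In the ethanol cells it was read at 6.55, 6.49 and 6.84 without and at 7.20, 7.46 and 7.44 with rosiglitazone. The 4OHT_Rosi arrays lay below each EtOH_Rosi array, whereas the groups without rosiglitazone overlapped. The rise with rosiglitazone after 4-hydroxytamoxifen was 0.20 ± 0.10 (SE, n = 3 and 3) and did not pass the test (adjusted p = 0.189). No source used here places the probes relative to exon 9, and these levels therefore do not check the excision. The adipocyte markers Adipoq, Fabp4, Plin1, Lpl, Cidec, Lipe and Pparg were all well above the level of the median gene in both groups, and the lowest of their means was 10.48, for Lipe in 4OHT. Of the brown or beige fat markers, Ucp1 (mean 5.73 in 4OHT and 6.21 in 4OHT_Rosi), Cidea (4.92 and 5.10) and Dio2 (5.74 and 5.57) stayed under the level of the median gene in both groups, and Cox8b (6.38 and 8.36) passed it with rosiglitazone.

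With rosiglitazone 2574 genes were higher (11.6% of those tested) and 2693 were lower (12.1%), which makes 5267 genes in all (23.7%). The changes were mostly small: the median called gene rose by 0.37 or fell by 0.40 on the log2 scale. A change of at least 2-fold was met by 179 genes among those higher (0.807%) and 129 among those lower (0.582%), and one of at least 4-fold by 27 and 11. The median difference over all genes was 0.

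The largest rise was in Sptlc3, a subunit of serine palmitoyltransferase, the enzyme that starts the synthesis of sphingolipids. It was read at 6.18, 6.08 and 6.45 in 4OHT and at 11.29, 11.22 and 11.27 in 4OHT_Rosi, a rise of 5.02 ± 0.12 (32.5-fold, adjusted p = 5.71e-11). Elovl3, an elongase of very long chain fatty acids known from brown fat, went from 8.23, 7.92 and 8.17 to 12.60, 12.59 and 12.65 (4.51 ± 0.16, adjusted p = 1.47e-09). In both genes the gap between the groups was many times the spread within them. Gys2, the glycogen synthase known from liver, went from 6.23, 6.22 and 6.32 to 10.23, 10.17 and 10.26, a rise of 3.96 ± 0.11. The same rule for the largest changes also took Tmprss11f, a membrane serine protease (3.69 ± 0.18), Aadac, a microsomal esterase (3.54 ± 0.13), Car4, a membrane-bound carbonic anhydrase (3.17 ± 0.13), and Elovl4, another long-chain elongase (3.11 ± 0.18). Olr1, the receptor for oxidised LDL (2.75 ± 0.14), Serpinb9e, a serine protease inhibitor of a multigene family (2.71 ± 0.24), Itgad, an integrin alpha chain (2.61 ± 0.10), and Rbp7, a retinol binding protein (2.59 ± 0.11), rose as well. Bpifa6 rose by 3.68 ± 0.10 and is described with the genes whose response differed from that of the ethanol cells.

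Leptin (Lep), the hormone by which fat signals its stores, fell furthest. It was read at 9.93, 9.92 and 9.77 in 4OHT and at 6.25, 6.89 and 6.38 in 4OHT_Rosi, a difference of -3.37 ± 0.18 (10.3-fold lower, adjusted p = 4.55e-08). Cyp2f2, a cytochrome P450, went from 12.03, 12.04 and 11.88 to 8.64, 9.07 and 9.19 (-3.02 ± 0.13), and its difference ranged from -3.13 to -1.76 over the other settings described below. No array of either gene overlapped between the groups. H2-M9, a non-classical MHC gene, fell by 2.83, and the acute phase genes Saa2, Orm3 and Orm2 fell by 2.43, 2.42 and 2.39. Chl1, a neuronal cell adhesion molecule, fell by 2.13 with a wide spread: its 4OHT_Rosi arrays read 6.59, 7.66 and 8.85, all under the 9.66, 9.82 and 10.00 of 4OHT. Prnd (7.91, 8.41 and 8.98 in 4OHT_Rosi) showed the same order of the arrays, with 4OHT_Rosi 3 the highest. The difference of Prnd ranged from -2.39 to -1.05 over the other settings. Pi16, a surface protein of fat and skin fibroblast progenitors (-2.08 ± 0.13), Rgs5, known from pericytes (-2.07 ± 0.20), Lgi4 (-2.01 ± 0.13) and the chemokine Cxcl13 (-1.89 ± 0.12) completed the 12 largest falls.

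**Figure D1:**
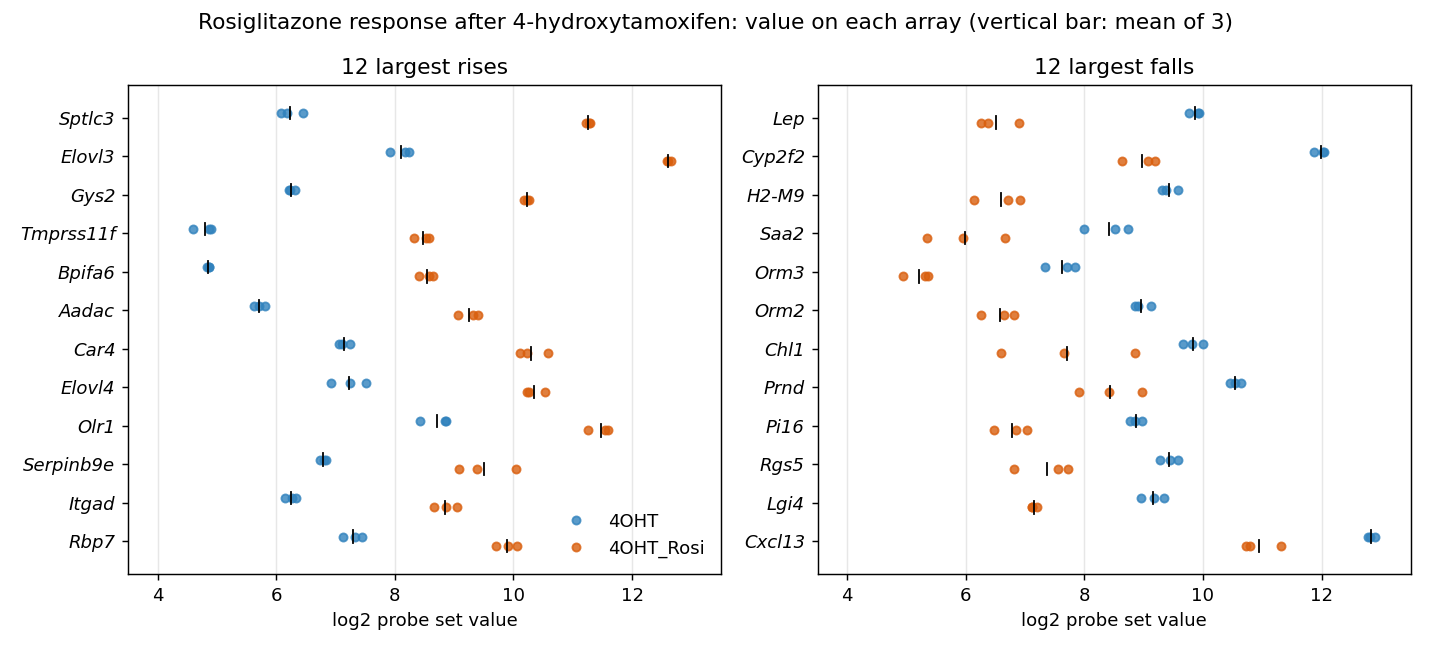
The log2 probe set value on each array (horizontal axis) for the 12 largest rises (left) and the 12 largest falls (right) with rosiglitazone after 4-hydroxytamoxifen, where dots are arrays of 4OHT (blue) and 4OHT_Rosi (orange) and vertical bars are means of 3. The groups do not overlap in any of these genes because the rule required it. Sptlc3 goes from a mean of 6.24 to 11.26 and Lep from 9.87 to 6.51, and Chl1 has the widest spread in 4OHT_Rosi, from 6.59 to 8.85.

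Orm2 and Orm3 encode orosomucoid, a plasma carrier protein, and their annotated starts lie 6291 bases apart on chromosome 4. Their 250 bases before the start are shown because these neighbours fell together. The genes are close copies, so probes could read both, but the bases shown lie before the start and do not bear on that. The sequences are from RefSeq (GRCm38.p6), written 5′ to 3′ on the plus strand, at chr4:63355908-63356157 for Orm3 and chr4:63362199-63362448 for Orm2. An end-to-end alignment found 219 identical positions of 255 (85.9%), against 47.3% for Orm2 and the Lep promoter aligned the same way.
Orm3: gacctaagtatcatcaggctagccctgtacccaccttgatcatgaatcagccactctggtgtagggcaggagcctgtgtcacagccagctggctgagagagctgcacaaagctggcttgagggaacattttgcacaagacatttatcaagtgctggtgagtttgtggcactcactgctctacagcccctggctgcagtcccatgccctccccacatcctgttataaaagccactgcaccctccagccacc
Orm2: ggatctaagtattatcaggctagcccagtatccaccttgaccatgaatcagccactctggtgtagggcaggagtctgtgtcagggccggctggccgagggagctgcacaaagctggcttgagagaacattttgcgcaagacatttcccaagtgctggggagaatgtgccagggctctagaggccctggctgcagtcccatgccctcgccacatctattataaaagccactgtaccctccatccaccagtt
Orm3 was read at 7.84, 7.70 and 7.34 in 4OHT and at 5.32, 5.37 and 4.94 in 4OHT_Rosi, and Orm2 at 9.12, 8.91 and 8.86 and at 6.64, 6.82 and 6.25. Both were lower on every rosiglitazone array. The third member of the family, Orm1, fell by 0.49 ± 0.09 (adjusted p = 0.000946). How far their probe sets share signal was not tested.

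Among PPARγ itself, its partners and its coregulators, 7 of 18 measured genes rose (38.9%, against 11.6% of all genes). Another 3 fell (16.7%, against 12.1%), and the median was 0.07. Pparg was read at 12.14, 12.11 and 12.17 in 4OHT and at 12.04, 12.05 and 11.98 in 4OHT_Rosi, lower on each rosiglitazone array, but its difference of -0.12 ± 0.05 did not pass the test (adjusted p = 0.149, and 0.0393 with an intensity trend and robust variances). Ppara, the related receptor of fatty acid oxidation, went from 7.64, 7.37 and 7.48 to 9.66, 9.43 and 9.38 (1.99 ± 0.09, adjusted p = 6.26e-09). The coactivator genes Ppargc1a (7.74, 7.35 and 7.30 to 9.04, 9.15 and 8.86, a rise of 1.55 ± 0.13) and Ppargc1b (1.38 ± 0.09) rose with it. Lpin1, a coregulator that is also a phosphatidate phosphatase, rose by 0.93 ± 0.08. The p160 coactivator Ncoa3 fell by 0.43, and the falls of Rxra (-0.18 ± 0.05) and Ep300 (-0.18 ± 0.05) were small. The count of falls was 1 without 4OHT 1, without 4OHT 3 or without 4OHT_Rosi 2. Of 24 adipogenic transcription factors 3 rose (12.5%, near the 11.6% of all genes) and 5 fell (20.8%, against 12.1%): Cebpb (0.49 ± 0.06) and Nr1h3, the liver X receptor (0.35 ± 0.07), were higher, while Klf4 (-0.76 ± 0.08), Klf15 (-0.67 ± 0.11) and Cebpd (-0.51 ± 0.06) were lower.

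Known target genes of PPARγ in fat cells rose as a rule: 26 of 34 measured genes were called higher against 11.6% of all genes, 1 was called lower, and the median difference was 0.54. This list, like the others, was written with earlier results of these data known. Cidec, which fuses lipid droplets, was read at 10.76, 10.53 and 10.68 in 4OHT and at 12.86, 12.90 and 12.78 in 4OHT_Rosi (2.19 ± 0.07, adjusted p = 7.97e-10). Slc27a1, a fatty acid transporter and acyl-CoA synthetase, went from 9.68, 9.40 and 9.40 to 11.58, 11.73 and 11.44 (2.09 ± 0.10), and Acaa1b, a peroxisomal thiolase, from 6.69, 6.48 and 6.56 to 8.80, 8.86 and 8.80 (2.24 ± 0.10). No array of these 3 genes overlapped between the groups. Trarg1, a regulator of the glucose transporter of fat (1.33 ± 0.05), Angptl4, an inhibitor of lipoprotein lipase (1.34 ± 0.07), and Pdk4, a pyruvate dehydrogenase kinase (1.47 ± 0.10), also rose. Adipoq, the gene of adiponectin, rose by 0.44 ± 0.06, from a mean of 10.62 to one of 11.06, and its arrays did not overlap. Fabp4, the fatty acid binding protein of fat, had overlapping arrays (13.55, 13.52 and 13.55 against 13.54, 13.64 and 13.56), and its difference of 0.04 ± 0.05 did not pass the test (adjusted p = 0.665). Its level is near the highest value of the table, 13.91. The gene that fell was Orm1.

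Genes of lipid release and oxidation had higher medians than genes of lipid synthesis. Lipolysis and adrenergic signalling had 14 of 19 genes higher, with a median of 0.40, among them the carboxylesterases Ces1d (1.79 ± 0.13) and Ces1f (1.49 ± 0.09), which belong to a family of close copies, the niacin receptor Hcar2 (1.80 ± 0.14) and monoglyceride lipase Mgll (0.76 ± 0.06). Mitochondrial β-oxidation had 21 of 22 genes higher, with a median of 0.74, and Acad10 did not pass the test. Slc25a20, the carnitine carrier of the inner membrane, was read at 10.01, 10.05 and 10.02 in 4OHT and at 11.39, 11.39 and 11.41 in 4OHT_Rosi (1.37 ± 0.06), and Acadl (0.94 ± 0.06), Hadha (0.88 ± 0.06) and Etfdh (1.08 ± 0.07) rose as well. In peroxisomal oxidation 15 of 21 genes rose, with a median of 0.50, led by Acot4, a thioesterase (1.86 ± 0.09), and Ehhadh, the bifunctional enzyme (1.74 ± 0.11). Lipid droplet genes counted 8 of 19 higher and 1 lower (median 0.18): the droplet coats Plin5 (2.01 ± 0.17) and Plin2 (0.81 ± 0.06) rose, and Dgat2, the last enzyme of triglyceride synthesis, fell from 12.06, 12.03 and 12.04 to 11.23, 11.38 and 11.10 (-0.81 ± 0.08). For triglyceride synthesis and glyceroneogenesis 11 of 21 rose and 4 fell (median 0.20), with 2 falls in place of 4 without 4OHT_Rosi 1. There the glycerol-handling genes Gpd1 (1.17 ± 0.06) and Aqp7 (1.09 ± 0.06) rose while Gpam, the first acyltransferase, fell by 0.50. For de novo lipogenesis 9 of 21 rose and 2 fell (median 0.17): Acacb, the mitochondrial acetyl-CoA carboxylase that restrains β-oxidation, rose by 1.47 ± 0.09, and Elovl6 and Fads2, an elongase and a desaturase, fell by 0.55 and 0.46. Fatty acid uptake had 6 of 19 higher, with a median of 0.02, and 1 lower, or 2 lower without 4OHT_Rosi 3. The member that fell was Gpihbp1 (-0.69 ± 0.14), which anchors lipoprotein lipase in capillaries. The shares called higher ran from 31.6% in fatty acid uptake to 95.5% in mitochondrial β-oxidation, against 11.6% of all genes. The shares called lower were 19.0% for triglyceride synthesis, 9.5% for de novo lipogenesis and 5.3% for lipid droplets and for fatty acid uptake. Among all genes 12.1% were lower, a share that only triglyceride synthesis exceeded. Whether these lists differ from one another was not tested.

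Mitochondrial genes of the nuclear genome were higher across the respiratory chain. In complex I 27 of 33 subunit genes rose, with a median of 0.39, and in complexes II to V 29 of 39, with a median of 0.34. Ndufab1, the mitochondrial acyl carrier protein and complex I subunit, went from 7.38, 7.32 and 7.42 to 8.16, 8.05 and 8.06 (0.72 ± 0.06). Uqcrfs1, the Rieske protein of complex III, rose by 0.85 ± 0.10. Of 41 mitochondrial ribosomal protein genes 35 rose (median 0.35), among them Mrps22 (0.88 ± 0.06) and Mrpl20 (0.81 ± 0.07). Cytosolic ribosomal protein genes went the other way, with 9 of 26 lower and a median of -0.15, for example Rpl13 (-0.38 ± 0.07), and the count was 6 to 10 when 1 array was left out. In the tricarboxylic acid cycle 17 of 21 rose (median 0.37), with Idh3a, a subunit of isocitrate dehydrogenase, going from 11.48, 11.48 and 11.55 to 12.58, 12.44 and 12.41 (0.97 ± 0.06). The pyruvate dehydrogenase list had 10 of 13 higher and 2 lower (median 0.58): the subunit genes Pdhb (0.74 ± 0.06) and Pdhx (0.88 ± 0.09) and the pyruvate carrier Mpc1 (0.58 ± 0.06) rose with Pdk4, while the kinase Pdk3 (-0.44 ± 0.08) and the phosphatase Pdp1 (-0.54 ± 0.07) fell. Catabolism of branched-chain amino acids had 10 of 24 higher and 1 lower, with a median of 0.23, and 14 higher without 4OHT_Rosi 3. Bckdhb, a subunit of the dehydrogenase that commits these amino acids to breakdown, rose by 1.07 ± 0.08. In these mitochondrial lists 41.7% to 85.4% of genes were higher, against 11.6% of all genes. The shares called lower were 34.6% for cytosolic ribosomal proteins, 15.4% for pyruvate dehydrogenase and 4.2% for branched-chain catabolism, against 12.1% of all genes.

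Lists of carbohydrate use differed in their counts. Glycolysis and hypoxia genes had 19 of 25 higher and 3 lower, with a median of 0.33. Egln3, an oxygen-sensing prolyl hydroxylase, went from 9.32, 8.63 and 8.65 to 11.51, 11.35 and 11.20 (2.49 ± 0.17, adjusted p = 2.63e-07), and Bnip3 (0.96 ± 0.12), Egln1 (0.66 ± 0.07) and Pfkl (0.62 ± 0.08) rose with it, while adrenomedullin (Adm), which hypoxia is known to raise, fell by 1.05. In glycogen metabolism 9 of 17 genes rose and 2 fell (median 0.21), with 6 to 9 higher when 1 array was left out. Gys1, the glycogen synthase of muscle and other tissues (0.75 ± 0.08), the branching enzyme Gbe1 (0.74 ± 0.10) and the phosphatase targeting subunit Ppp1r3d (0.78 ± 0.05) rose beside Gys2, and the phosphorylase Pygb (-0.53 ± 0.09) and the lysosomal glucosidase Gaa (-0.32 ± 0.06) fell. Insulin signalling was mixed, with 6 of 23 genes higher (26.1%, against 11.6% of all genes) and 8 lower (34.8%, against 12.1%). The count lower was 5 without 4OHT 3 or without 4OHT_Rosi 2, and the median was -0.02. Irs2 (1.05 ± 0.10) and Tbc1d4 (0.80 ± 0.07), which act downstream of the insulin receptor, rose, and Igf1r (-0.76 ± 0.11) and Socs3 (-0.64 ± 0.08) fell. Cholesterol synthesis had 9 of 19 higher and 2 lower (median 0.22), with Hmgcs1 rising from 11.19, 11.28 and 11.25 to 12.30, 12.36 and 12.29.

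**Figure D2:**
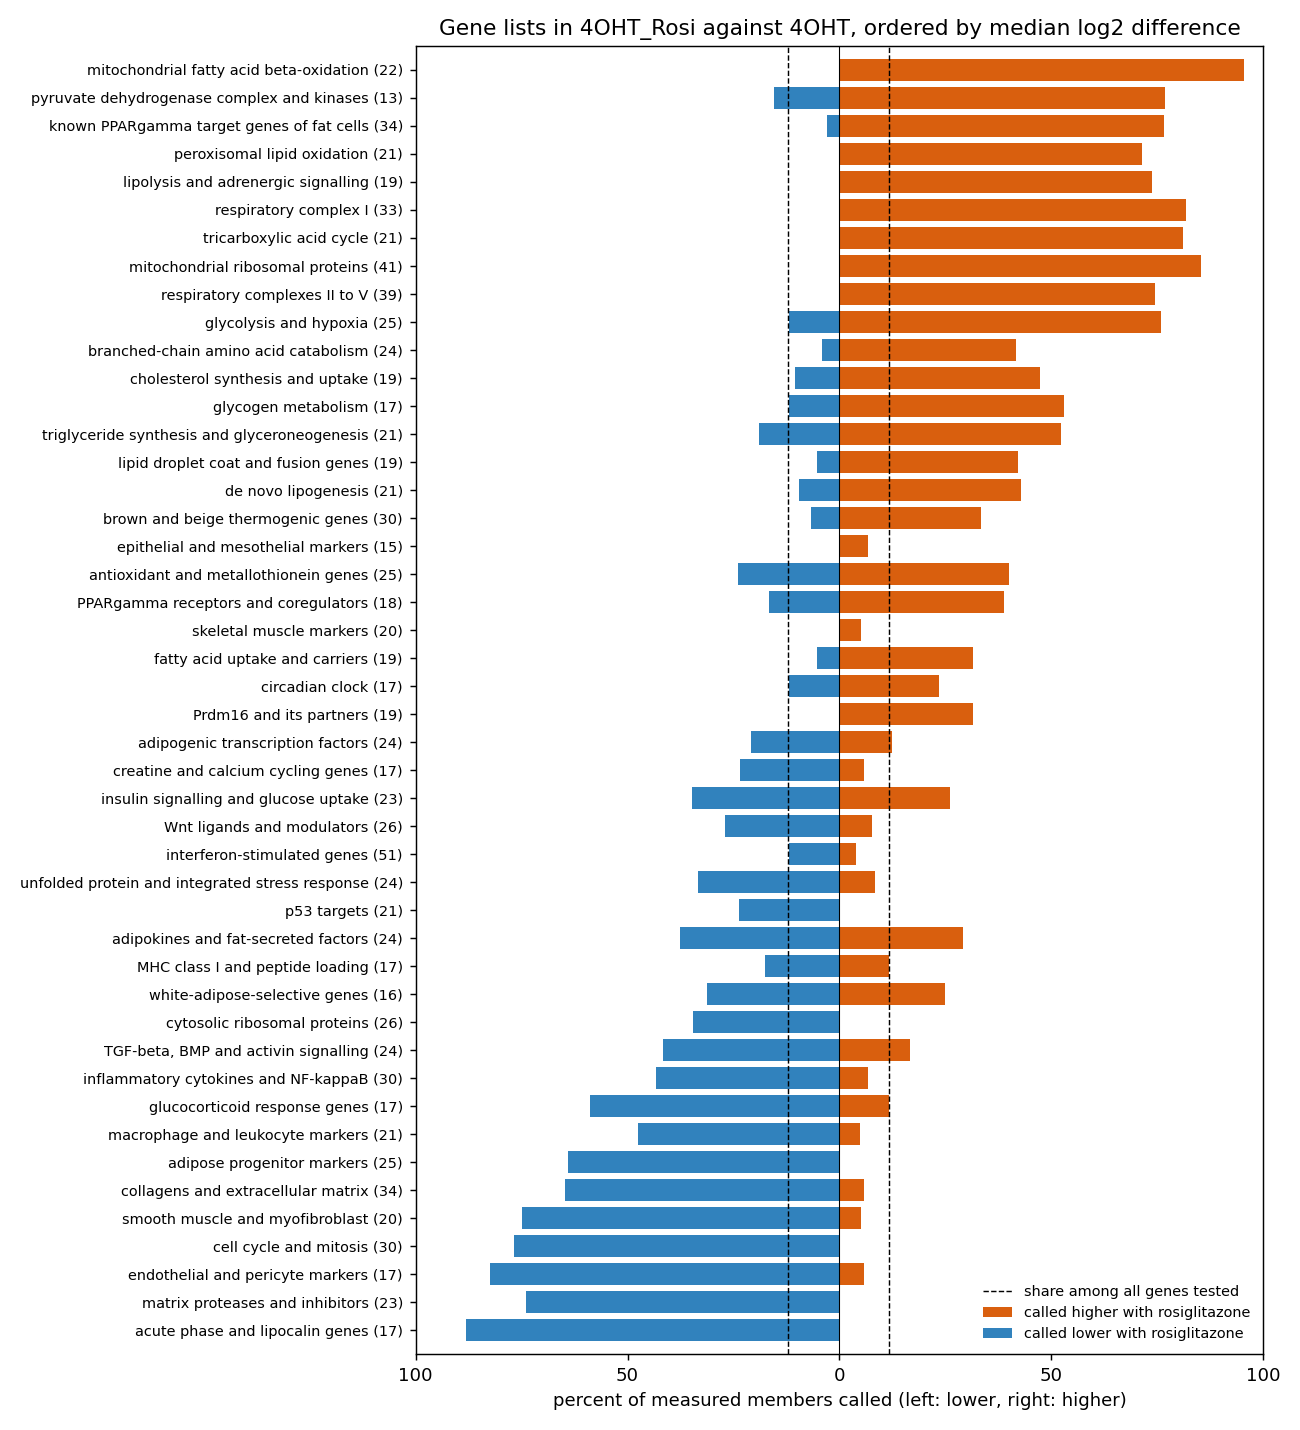
For each of 46 gene lists, the percent of its measured members (number in brackets) called higher (orange, to the right) or lower (blue, to the left) with rosiglitazone after 4-hydroxytamoxifen, ordered by the list's median log2 difference. Dashed lines mark the shares among all genes tested, 11.6% higher and 12.1% lower. Oxidation and respiration lists lie at the top and matrix, cell cycle and acute phase lists at the bottom.

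Of 30 brown and beige thermogenic genes 10 rose (33.3%, against 11.6% of all genes) and 2 fell (6.7%, against 12.1%). Their median was 0.15. Those that rose included Elovl3, Ppargc1a and Ppara, given above. Otop1, a proton channel known from brown fat, went from 6.40, 6.53 and 6.51 to 8.65, 8.42 and 8.64 (2.09 ± 0.08). Cox8b, the muscle and brown fat isoform of a complex IV subunit, went from 6.34, 6.33 and 6.48 to 8.45, 8.55 and 8.09 (1.98 ± 0.14), and Cox7a1, a further such isoform, rose by 1.26 ± 0.12. Ucp1, the uncoupling protein that makes heat, was read at 5.62, 5.86 and 5.70 in 4OHT and at 6.29, 6.10 and 6.24 in 4OHT_Rosi. Its arrays did not overlap, and the rise of 0.48 ± 0.14 was called (adjusted p = 0.02), but the call was lost without 4OHT 1, 4OHT 3, 4OHT_Rosi 1 or 4OHT_Rosi 3, with adjusted p-values of up to 0.0775. Cidea, a droplet protein of brown fat, was read at 4.99, 4.89 and 4.87 and at 5.13, 5.15 and 5.02, a difference of 0.18 ± 0.15 that did not pass the test (adjusted p = 0.461). The genes called lower were Sp100 (-0.53 ± 0.12), which also stands in the list of interferon-stimulated genes, and Lhx8 (-0.38 ± 0.12). The call of Lhx8 was lost, leaving 1 lower gene, without EtOH 2, EtOH_Rosi 2, 4OHT_Rosi 1, 4OHT_Rosi 2 or any array of 4OHT. Lhx8 also lost the call with the replicate block, with only the groups compared in the fit, and with quantile normalization or median centring. Of 17 genes of creatine and calcium cycling 1 rose (5.9%, against 11.6% of all genes) and 4 fell (23.5%, against 12.1%). Alpl, an alkaline phosphatase that hydrolyses phosphocreatine in thermogenic fat, fell by 0.84, Gamt, which makes creatine, by 0.71, and the creatine transporter Slc6a8 by 0.44. The rise, of Atp2a3, was lost without 4OHT 2, 4OHT 3 or 4OHT_Rosi 1, and with the replicate block.

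Fat-secreted factors split, with 7 of 24 higher (29.2%, against 11.6% of all genes) and 9 lower (37.5%, against 12.1%). Their median was -0.11. Nrg4, a factor from brown fat (0.83 ± 0.11), and Vegfa (0.42 ± 0.06) rose, and besides Lep and Adm the peptide apelin (Apln, -0.59 ± 0.09) and Slit2 (-0.73 ± 0.11) fell. Of 16 white-selective genes 4 rose and 5 fell. The count higher was 2 without 4OHT 1 or 4OHT 3, and the count lower was 3 without 4OHT 2. Acute phase and lipocalin genes fell together: 15 of 17 were lower (88.2%) and none higher, with a median of -0.71. Without 4OHT_Rosi 3, 15 were lower and 1 was higher, with a median of -0.61. Hpx, which binds heme in plasma, went from 9.27, 9.15 and 9.04 to 7.46, 7.62 and 7.97 (-1.47 ± 0.11), and Lbp, which binds bacterial lipopolysaccharide, fell by 0.78.

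Genes of the connective tissue cell were lower. Adipose progenitor markers had 16 of 25 called lower against 12.1% of all genes, with a median of -0.40, or -0.55 without 4OHT_Rosi 3. Pdgfra, the receptor that marks these progenitors, was read at 11.39, 11.48 and 11.57 in 4OHT and at 10.24, 10.29 and 10.60 in 4OHT_Rosi (-1.10 ± 0.09), and Cd34 at 10.88, 10.86 and 10.76 and at 9.48, 9.94 and 9.87 (-1.07 ± 0.10). Neither overlapped. Collagen and matrix genes had 22 of 34 lower and 2 higher, with a median of -0.45 (-0.56 without 4OHT_Rosi 3): elastin (Eln) fell by 1.03, lumican (Lum) by 1.19 and decorin (Dcn) by 0.58, while Col5a3 (0.55 ± 0.07) and Col6a2 (0.30 ± 0.07) rose. Matrix proteases and their inhibitors had 17 of 23 lower, with a median of -0.61 (-0.76 without 4OHT_Rosi 3), among them Adamts5 (-1.27 ± 0.08) and Timp2 (-0.61 ± 0.06). Smooth muscle and myofibroblast genes had 15 of 20 lower and 1 higher (median -0.46), with Des, the intermediate filament desmin, at -0.81 ± 0.08. The smooth muscle marker Acta2 went from 12.84, 12.87 and 12.93 in 4OHT to 12.18, 12.17 and 12.60 in 4OHT_Rosi. Another such marker, Cnn1, overlapped between the groups, at 8.07, 7.92 and 8.16 and at 7.93, 7.76 and 8.70. The mean over a list's genes ranged between arrays from 9.24 to 9.26 in 4OHT and from 8.69 to 8.95 in 4OHT_Rosi for the progenitor markers, and from 8.80 to 8.83 and from 8.24 to 8.56 for the smooth muscle genes. These lists had 64.0% to 75.0% of genes lower. The shares called higher, 5.9% of collagen and matrix genes and 5.0% of smooth muscle genes, were under the 11.6% of all genes. In bulk RNA, fewer cells of a type and less RNA per cell cannot be told apart.

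Markers of cells other than fat cells moved in the same samples. Endothelial and pericyte markers had 14 of 17 called lower and 1 higher, with a median of -0.51 (-0.43 without 4OHT_Rosi 1). The list's mean was 8.73 to 8.89 in 4OHT and 8.09 to 8.40 in 4OHT_Rosi. The defining endothelial markers Pecam1 (9.70 to 9.21), Cdh5 (11.62 to 11.07), Tek (8.27 to 7.44) and Tie1 (7.83 to 7.39) fell and remained above the level of the median gene, and Kdr (8.59 to 8.50) did not pass the test. The member that rose was Cspg4, a proteoglycan of pericytes (1.07 ± 0.10). Macrophage and leukocyte markers had 10 of 21 lower, with a median of -0.27 and a list mean of 8.02 to 8.20 in 4OHT and 7.83 to 7.90 in 4OHT_Rosi, among them Cd68 (-0.43 ± 0.07) and Mrc1 (-0.61 ± 0.09). The 1 called higher, Cd79a, was lost without EtOH 3 or without any array of the groups compared, and with an intensity trend and robust variances. The leukocyte marker Ptprc was read at a mean of 6.68 in 4OHT and 6.45 in 4OHT_Rosi, which did not pass the test, and Cd3e lay at 5.21 and 5.40. Epithelial and mesothelial markers (1 of 15 higher, or 2 without 4OHT_Rosi 2) and skeletal muscle markers (1 of 20 higher, or none to 2 when 1 array was left out) had medians of 0.08 and 0.04. Their shares called higher, 6.7% and 5.0%, were under the 11.6% of all genes. The endothelial and macrophage lists had 82.4% and 47.6% lower, against 12.1% of all genes, and 5.9% and 4.8% higher. The epithelial list's mean was 6.30 to 6.40 in 4OHT and 6.37 to 6.61 in 4OHT_Rosi. Its marker Epcam was read at 6.93, 7.04 and 6.98 in 4OHT and at 6.79, 6.84 and 7.80 in 4OHT_Rosi. Cdh1 was read at 7.48, 7.31 and 7.36 and at 7.60, 7.41 and 7.89. In both genes 4OHT_Rosi 3 was the highest of these arrays. The part of these cell types in the lower matrix, progenitor, inflammatory and acute phase genes was not tested, nor was their part in the values of 4OHT_Rosi 3.

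Cell cycle genes had 23 of 30 lower (76.7%, against 12.1% of all genes) and a median of -0.46. Mki67, a marker of dividing cells, was read at 8.39, 8.61 and 8.54 in 4OHT and at 7.58, 7.54 and 7.92 in 4OHT_Rosi (-0.83 ± 0.10), and Ccna2 (-0.82 ± 0.12) and Ccnd1 (-0.72 ± 0.08), both cyclins, fell too. Signalling genes of the TGF-β and BMP family had 4 of 24 higher and 10 lower (median -0.21), with the ligands divided: Bmp3 (6.29, 6.47 and 6.32 to 7.74, 7.87 and 8.22) and Bmp4 (7.30, 7.54 and 7.27 to 8.29, 8.50 and 8.51) rose by 1.58 ± 0.12 and 1.06 ± 0.12, and Tgfb3 fell by 1.19. Bmp2 fell from 6.98, 6.44 and 6.59 to 5.91, 6.10 and 6.34 (-0.55 ± 0.13), Bmp5 fell by 0.53, and Bmp6 and Bmp7 did not pass the test. The BMP antagonist Nog (0.59 ± 0.07) and the inhibitory Smad6 (0.45 ± 0.07) rose. The 4 genes called higher were 16.7% of this list and the 10 lower were 41.7%, against 11.6% and 12.1% of all genes. Of 26 Wnt ligands and modulators 7 fell (26.9%, against 12.1% of all genes) and 2 rose (7.7%, against 11.6%). The secreted antagonists Sfrp1 (-1.27 ± 0.16) and Sfrp2 (-1.23 ± 0.22) were lower and Wnt5a (0.41 ± 0.09) was higher. The Wnt count lower was 3 without 4OHT_Rosi 1 and 4 without 4OHT_Rosi 2, and the count higher was 1 without 4OHT 1, 4OHT_Rosi 1 or 4OHT_Rosi 3.

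Inflammatory genes had 13 of 30 lower and 2 higher, with a median of -0.21. The chemokine Cxcl12 fell from 11.80, 11.94 and 11.85 to 10.54, 10.75 and 10.94 (-1.12 ± 0.10), and Ccl5 (-0.76 ± 0.15), Vcam1 (-0.68 ± 0.11) and Csf1 (-0.56 ± 0.09) were lower. Of those called higher, Tnfaip3 was at 0.45 ± 0.11, and the count was 1 without 4OHT 1 or 4OHT_Rosi 3. Of 51 interferon-stimulated genes 6 were called lower (11.8%, near the 12.1% of all genes) and 2 higher (3.9%), with a median of -0.07, or -0.12 without 4OHT_Rosi 3. Glucocorticoid response genes had 10 of 17 lower and 2 higher, with a median of -0.24 (-0.19 without 4OHT_Rosi 3 and -0.31 without 4OHT_Rosi 2), among them Hsd11b1, which regenerates active glucocorticoid (-0.96 ± 0.09), Errfi1 (-0.62 ± 0.06) and Klf9 (-0.37 ± 0.06). Of 25 antioxidant genes 10 rose and 6 fell, with Gsta3, a glutathione transferase of a family of close copies, at -1.70 ± 0.10 and Mgst3, a membrane-bound one, at 0.94 ± 0.09. Stress response genes of the endoplasmic reticulum had 8 of 24 lower and 2 higher: the cochaperone Dnajb9 rose by 0.89 ± 0.05 and Sdf2l1 fell by 0.63. That count of 8 was 5 without 4OHT 1, 4OHT 2, 4OHT_Rosi 1 or 4OHT_Rosi 2.

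The same comparison in the ethanol cells, EtOH_Rosi against EtOH, shares no array with that after 4-hydroxytamoxifen. It called 3191 genes higher (14.4%) and 3623 lower (16.3%). Of the 2574 genes higher after 4-hydroxytamoxifen, 2032 were also higher after ethanol, which is 78.9% of the former and 63.7% of the latter list, and 6 were called lower. Of the 2693 lower genes 2152 were shared (79.9% and 59.4%), and 13 were called the other way. Sptlc3 rose by 5.54, Elovl3 by 4.82 and Gys2 by 3.99 after ethanol, and Lep fell by 3.57. The lists' medians after ethanol stood at 0.96 for β-oxidation against 0.74, at 0.59 against 0.39 for complex I, at 0.60 against 0.23 for branched-chain amino acid catabolism, at -0.89 against -0.46 for the cell cycle and at -0.34 against -0.07 for interferon-stimulated genes. The starting levels of the last 2 lists differed. The interferon list's mean was 8.40 to 8.76 in EtOH and 9.56 to 9.59 in 4OHT, and 8.12 to 8.37 and 9.41 to 9.62 with rosiglitazone. The cell cycle list's mean was 8.22 to 8.28 in EtOH and 7.73 to 7.87 in 4OHT, and 7.29 to 7.42 and 7.26 to 7.53 with rosiglitazone. Whether the lists' medians differ between the responses was not tested. A gene called in one response and not in the other is not shown to differ: of the 536 and 528 genes called higher or lower after 4-hydroxytamoxifen and not called after ethanol, 12 and 14 passed the test of the difference.

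That test, the response after 4-hydroxytamoxifen minus that after ethanol, called 116 genes above 0 (0.523%) and 107 below 0 (0.482%), and 12 in each direction differed by at least 2-fold (0.0541%). Among the 116 above 0, 92 were called lower after ethanol and 38 lower after 4-hydroxytamoxifen, and among the 107 below 0, 82 were called higher after ethanol and 43 higher after 4-hydroxytamoxifen. These counts move with single arrays. The count above 0 was 36, 35 and 49 without EtOH 1, 2 and 3, it was 24, 32 and 47 without 4OHT 1, 2 and 3, it was 32 and 49 without EtOH_Rosi 2 and 3, and it was 177 and 43 without 4OHT_Rosi 1 and 3. The count below 0 was 54, 33 and 40, then 27, 37 and 44 without the same arrays of EtOH and 4OHT, 173, 36 and 64 without EtOH_Rosi 1, 2 and 3, and 50 without 4OHT_Rosi 3. The called genes described next kept the call in this test under each of the other settings in which they were tested. Exceptions are the 2-fold minimum for those that differed by less, and the cell cycle genes described last. Ucp1, Cidea, Orm3, Sfrp4 and Bpifa6 lay under the 50th percentile of level and were not tested with that filter.

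**Figure D3:**
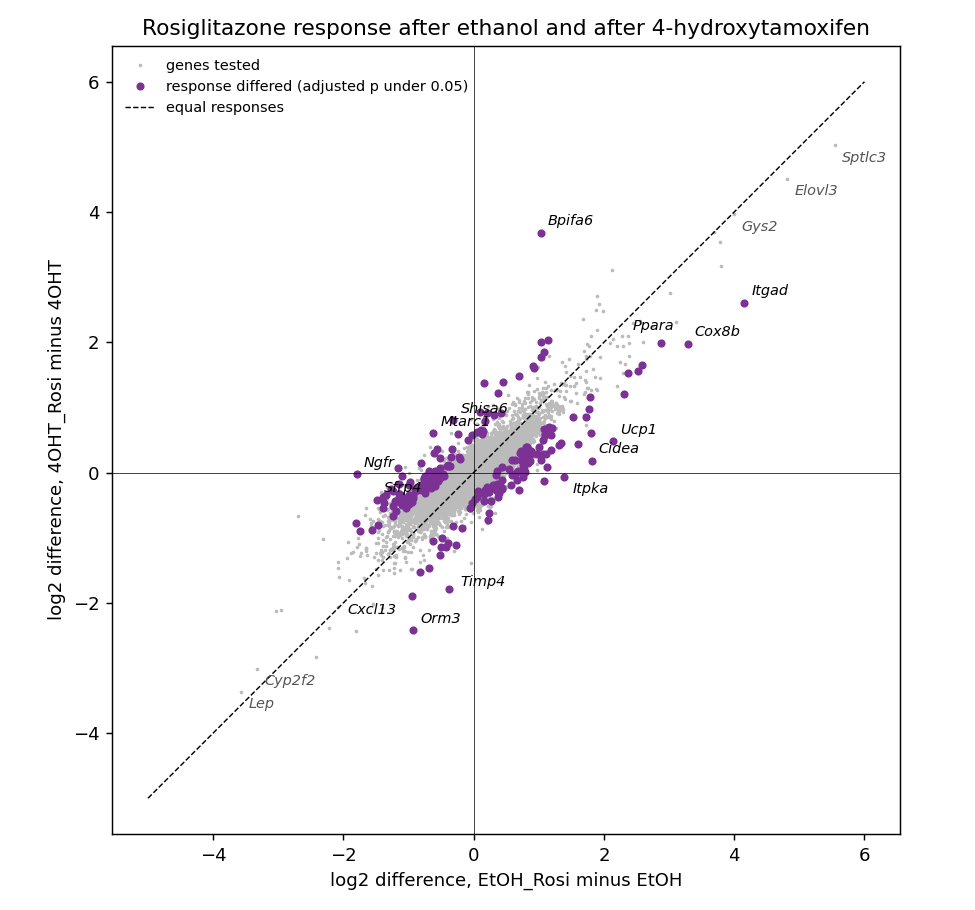
Each of the 22180 genes by its log2 difference with rosiglitazone after ethanol (horizontal axis) and after 4-hydroxytamoxifen (vertical axis), where purple dots are the genes whose responses differed (116 and 107) and the dashed line marks equal responses. Sptlc3, Elovl3, Gys2 and Lep lie near the line, Ucp1, Cidea, Cox8b and Itgad lie below it on the right, and Bpifa6 lies above it.

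The thermogenic genes Ucp1, Cidea, Cox8b and Ppara had a smaller response after 4-hydroxytamoxifen. Ucp1 was read at 5.59, 5.63 and 5.73 in EtOH and at 8.20, 7.51 and 7.65 in EtOH_Rosi, a rise of 2.14 ± 0.14 against 0.48 ± 0.14, and the responses differed by -1.65 ± 0.19 (adjusted p = 0.00591). Cidea was read at 4.76, 4.71 and 5.07 and at 6.20, 6.85 and 6.92, a rise of 1.81 ± 0.15 against 0.18 ± 0.15 (difference -1.63 ± 0.21, adjusted p = 0.00726). In both genes each EtOH_Rosi array lay above each 4OHT_Rosi array, while the arrays without rosiglitazone overlapped between ethanol and 4-hydroxytamoxifen. Cox8b rose by 3.28 ± 0.14 after ethanol against 1.98 ± 0.14 (difference -1.30 ± 0.20, adjusted p = 0.0122), so most of its response was present in both. Ppara rose by 2.88 ± 0.09 against 1.99 ± 0.09 (difference -0.88 ± 0.12, adjusted p = 0.00776). Of the 30 thermogenic genes these 4 passed the test of the difference below 0, against 0.482% of all genes, and they did so without each single array in turn. The coactivator Ppargc1a rose by 1.73 after ethanol and by 1.55 after 4-hydroxytamoxifen, a difference of -0.18 that did not pass the test (adjusted p = 0.748), and Cox7a1 differed by -0.63 ± 0.17 (adjusted p = 0.109). Prdm16 itself rose by 0.74 ± 0.10 after ethanol against 0.20 ± 0.10, a difference of -0.54 ± 0.14 that did not pass (adjusted p = 0.0954) except without EtOH_Rosi 1 (adjusted p = 0.0458).

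Genes of other roles also had responses that differed. Itgad rose from 6.28, 6.49 and 6.59 to 10.56, 10.75 and 10.52 after ethanol and from 6.14, 6.26 and 6.33 to 9.04, 8.86 and 8.66 after 4-hydroxytamoxifen (difference -1.55 ± 0.15, adjusted p = 0.00074). Orm3 fell by 0.93 after ethanol and by 2.42 after 4-hydroxytamoxifen, from starting levels of 6.25, 5.60 and 5.82 in EtOH and 7.84, 7.70 and 7.34 in 4OHT. It reached 4.88, 5.10 and 4.90 in EtOH_Rosi and 5.32, 5.37 and 4.94 in 4OHT_Rosi, where the groups overlapped. Ngfr, the low-affinity nerve growth factor receptor, fell from 8.76, 8.96 and 8.66 to 7.16, 6.99 and 6.84 after ethanol. After 4-hydroxytamoxifen it was already at 6.49, 6.63 and 6.40 without rosiglitazone, with 6.86, 6.05 and 6.54 on the rosiglitazone arrays (difference 1.77 ± 0.23, adjusted p = 0.00726). Sfrp4, a Wnt antagonist, likewise fell by 1.48 after ethanol from 7.17, 7.54 and 7.52, and by 0.42 after 4-hydroxytamoxifen from 6.27, 6.22 and 6.13. Gdf10, a ligand of the TGF-β family, fell by 1.47 and by 0.81 (difference 0.67 ± 0.09). In the last 4 genes the arrays without rosiglitazone did not overlap between EtOH and 4OHT, so the difference of responses holds their starting levels as well as their end points.

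Bpifa6, a gene of the BPI fold family of secreted lipid-binding proteins, and Mtarc1, a mitochondrial molybdenum enzyme, differed the other way. Bpifa6 was read at 4.60, 4.85 and 4.55 in EtOH and 4.87, 4.86 and 4.84 in 4OHT. With rosiglitazone it was read at 5.57, 5.92 and 5.59 after ethanol and at 8.57, 8.40 and 8.65 after 4-hydroxytamoxifen. Its rise was 1.03 ± 0.10 in the former and 3.68 ± 0.10 in the latter, the largest difference above 0 among the genes that met the rule for naming (2.66 ± 0.14, adjusted p = 2.25e-06). Mtarc1 fell from 9.01, 8.82 and 8.78 to 8.22, 8.37 and 8.15 after ethanol (-0.62 ± 0.08) and rose from 9.12, 9.20 and 9.03 to 9.76, 9.66 and 9.76 after 4-hydroxytamoxifen (0.61 ± 0.08), so the calls were in opposite directions (difference 1.23 ± 0.11, adjusted p = 0.000514). Calls in opposite directions were found in 6 of the genes above 0 and in 8 of those below 0.

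The cell cycle list had more genes that passed this test than the thermogenic list, 7 of 30 against 4 of 30, all of them above 0 (0.523% of all genes were), but its count rested on single arrays. The 7 were Top2a, Plk1, Cenpe, Kif23, Birc5, Mcm3 and Pcna, genes of mitosis and DNA replication. None passed without EtOH 1, EtOH 2, 4OHT 1 or 4OHT 3, 1 passed without EtOH_Rosi 2 or 4OHT_Rosi 3, 2 without 4OHT 2 or EtOH_Rosi 3, and 3 without EtOH 3. Plk1, a mitotic kinase, fell from 8.75, 8.72 and 8.70 to 7.54, 7.45 and 7.46 after ethanol and from 7.80, 8.10 and 7.93 to 7.27, 7.41 and 7.61 after 4-hydroxytamoxifen (difference 0.73 ± 0.12, adjusted p = 0.0205). It had the smallest adjusted p of the 7 and was chosen after its values were seen. Without rosiglitazone each EtOH array lay above each 4OHT array, and with it the groups overlapped. The lists were not compared by a test.

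**Figure D4:**
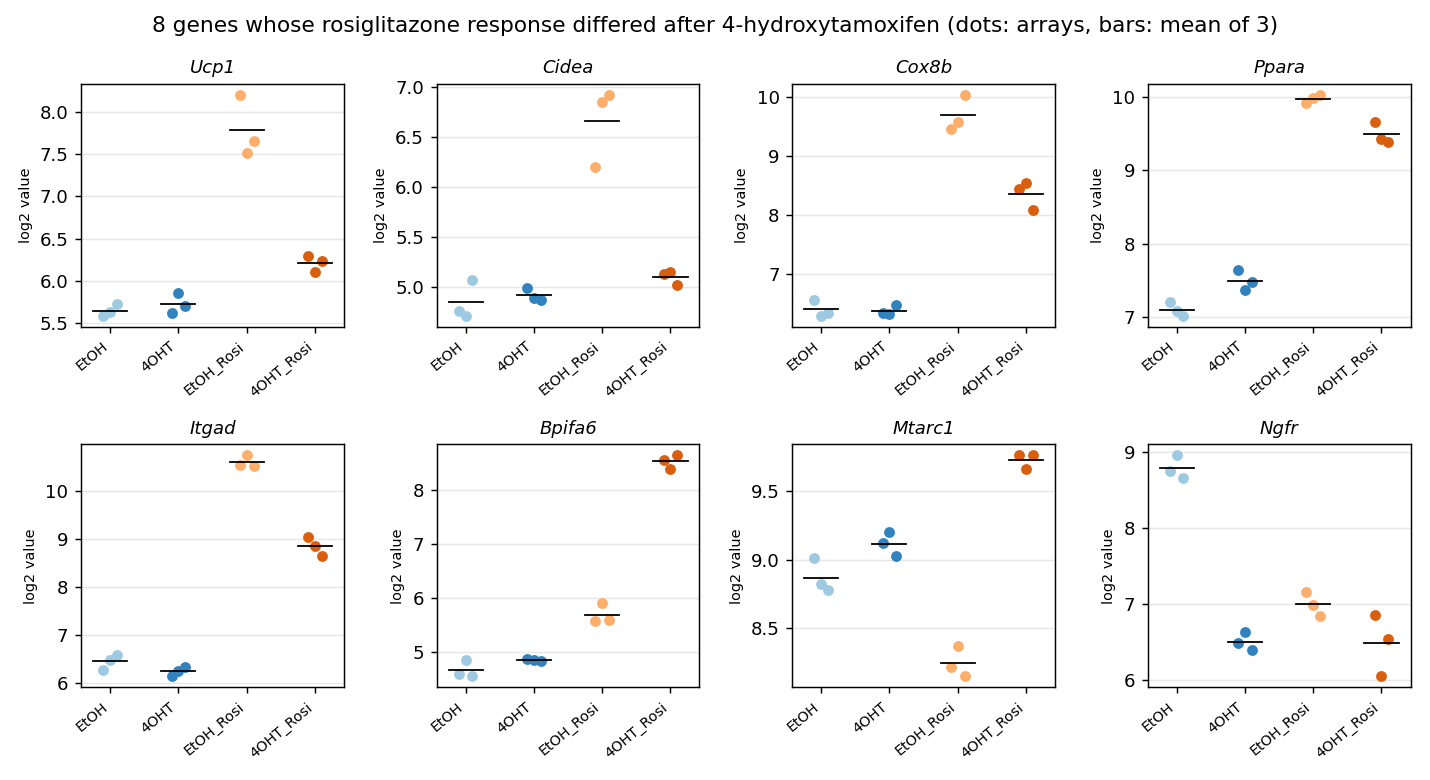
The log2 value on each array (vertical axis) in the 4 groups (horizontal axis, in the order EtOH, 4OHT, EtOH_Rosi and 4OHT_Rosi) for 8 genes whose responses differed, where dots are arrays and bars are means of 3, and each panel has its own vertical range. Ucp1 and Cidea rise in EtOH_Rosi and less or not past the test in 4OHT_Rosi, Bpifa6 rises most in 4OHT_Rosi, Mtarc1 moves in opposite directions, and Ngfr is already low in 4OHT.

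Promoters were searched for the site that PPARγ and a retinoid X receptor are known to bind, written AGGTCANAGGTCA, on both strands of the 250 bases before each RefSeq start (GRCm38.p6). Of 16990 tested genes with a promoter in that table, 10 held the exact site (0.0589%), 2 of them among the 2092 genes called higher (0.0956%). With N allowed at the fourth base of each hexamer (AGGNCANAGGNCA, which takes in the exact site), 66 genes held it (0.388%), against 11 of the 2092 higher genes (0.526%) and 10 of 2034 lower genes (0.492%). The 66 genes had a median difference of 0.00, with 11 higher and 10 lower. The single hexamer AGGTCA, which lies within the longer sites, was found in 14.4% of all genes, 14.4% of the higher and 12.8% of the lower genes, and in 19.3% of 135 genes higher and 17.2% of 99 genes lower by at least 2-fold. Of the 9 promoters found for the 12 largest rises 3 held the hexamer, as did 3 of the 11 found for the 12 largest falls. The genes with an exact site that were called higher were Isca1, a mitochondrial iron-sulfur assembly gene (0.64 ± 0.08, adjusted p = 5.39e-05), and Srp54c, a signal recognition particle gene (0.38 ± 0.07, adjusted p = 0.000876). Both were chosen for their sites after their values were seen. They are shown with the promoter of Bpifa6, whose larger response after 4-hydroxytamoxifen is described above, each 5′ to 3′ on its gene's strand with matches to a motif in capitals. Isca1 lies on the minus strand at chr13:59769790-59770039, Srp54c on the plus strand at chr12:55230127-55230376 and Bpifa6 on the plus strand at chr2:153974695-153974944.
Isca1: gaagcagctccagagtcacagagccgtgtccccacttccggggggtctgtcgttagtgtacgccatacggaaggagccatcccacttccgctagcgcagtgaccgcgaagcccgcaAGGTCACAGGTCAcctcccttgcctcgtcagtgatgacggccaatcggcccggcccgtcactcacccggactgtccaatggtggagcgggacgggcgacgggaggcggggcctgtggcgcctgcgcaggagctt
Srp54c: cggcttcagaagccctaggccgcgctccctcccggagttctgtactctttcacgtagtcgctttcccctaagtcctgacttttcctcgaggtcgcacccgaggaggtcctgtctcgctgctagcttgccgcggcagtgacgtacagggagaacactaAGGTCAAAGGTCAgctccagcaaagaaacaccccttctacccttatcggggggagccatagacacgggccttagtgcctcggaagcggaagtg
Bpifa6: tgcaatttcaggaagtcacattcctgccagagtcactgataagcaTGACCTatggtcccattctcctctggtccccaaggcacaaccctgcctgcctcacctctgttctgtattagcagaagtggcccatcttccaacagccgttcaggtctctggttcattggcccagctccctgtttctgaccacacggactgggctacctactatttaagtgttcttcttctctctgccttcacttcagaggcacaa
The exact sites start 134 bases before the annotated start in Isca1 and 93 bases before it in Srp54c, and Bpifa6 holds a single hexamer, on the opposite strand, starting 205 bases before its start. The site of Isca1 is also counted for Etohd2, a gene on the other strand, 55 bases before its start. Etohd2 was not called (0.14 ± 0.11, adjusted p = 0.426 by limma). A match describes the letters of the window and is not evidence of binding.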

How the data were processed

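The 12 samples were read on 12 Affymetrix arrays. The authors deposited log2 signals for 41345 probe sets. Affymetrix Expression Console was used, per the submitters' processing notes, with no version, summary method or normalization in any source used here. The log2 scale was checked from the range, 3.05 to 13.91. Of the probe sets 23521 had 1 gene symbol, 1814 several and 16010 none, and 190 were AFFX controls. Names were updated by Entrez ID through RefSeq (23328 matched, 193 not). The brightest probe set stood for a gene with more than 1 (1082 genes), which left 22180 genes, with no filter on dim genes. For arrays the number of arrays, 3 per group, limits the precision.

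Samples were grouped by their labels. Group means were fitted over all 12 arrays with lmFit of limma 3.58.1 in R 4.3.3, then eBayes (8 residual and 5.07 prior degrees of freedom). The comparisons were 4OHT_Rosi minus 4OHT, EtOH_Rosi minus EtOH, and the first minus the second. Genes with a Benjamini-Hochberg adjusted p under 0.05 over all genes were called.

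The members and the 46 gene lists were chosen with earlier results of these data known. Of the listed genes 979 were measured and 92 were not. A rule named the genes: the panel Prdm16, Pparg, Ucp1, Cidea, Ppargc1a, Adipoq and Fabp4, the 12 largest rises and falls, up to 4 called members of each list by smallest p in each direction, and the 6 largest differences between the responses in each direction. The largest changes had to be called, the brighter group had to reach the median level, and, except for the difference, the arrays compared could not overlap. Olfactory receptors, small RNAs and predicted genes were not considered. Markers of cell types were named as a fixed set.

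The settings varied one at a time were the replicate number as a block, the groups in the fit, eBayes with an intensity trend and robust variances, weights for arrays, the scaling (quantile or median), the filter on dim genes, the choice of probe set, the fold minimum (2-fold) and the removal of each array. In simulated data of 22180 genes with 200 changed, 73.1% of genes changed by 0.5 log2 were recovered for 4OHT_Rosi minus 4OHT, 98.5% of those changed by 1 and 100% of those changed by 2, and 4.23% of calls fell on unchanged genes. For the difference between the responses the shares were 44.8%, 94% and 100%, with 5.36%. Promoter and miRNA sequences came from RefSeq tables. Figures were drawn with matplotlib 3.10.9.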

Additional observations from a re-analysis of the deposited data

Results flagged for a closer look

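The response after 4-hydroxytamoxifen differed from that after ethanol, by limma's test of the difference itself, in 116 genes above 0 and 107 below 0, and these 22 genes named by the rule are among them. Below 0 lay Ucp1 (-1.65), Cidea (-1.63), Itgad (-1.55), Orm3 (-1.49), Itpka, an inositol kinase (-1.46), Timp4 (-1.42), Cox8b (-1.30), Cxcl13 (-0.95), Ppara (-0.88), Ckb, the brain creatine kinase (-0.53), Dbp, a clock output factor (-0.53), Fmo2 (-0.49) and Isg20 (-0.44). Above 0 lay Mest (0.57), Top2a (0.57), Gdf10 (0.67), Sfrp4 (1.07), Shisa6 (1.11), the apelin receptor Aplnr (1.22), Mtarc1 (1.23), Ngfr (1.77) and Bpifa6 (2.66).

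Itpka rose from 6.51, 6.52 and 6.11 to 7.25, 7.88 and 8.17 after ethanol and was read at 6.63, 6.42 and 6.38 and at 6.53, 6.52 and 6.17 after 4-hydroxytamoxifen. Timp4, an inhibitor of matrix proteases, fell from 9.41, 9.29 and 9.10 to 7.77, 7.60 and 7.06 after 4-hydroxytamoxifen, and its fall of 0.37 after ethanol did not pass the test (adjusted p = 0.149). Shisa6 rose from 6.88, 6.59 and 6.82 to 7.12, 7.62 and 7.96 after 4-hydroxytamoxifen, with 4OHT_Rosi 3 the highest. The 2-fold minimum aside, which genes that differed by less could not meet, calls of the difference were lost under 1 or more settings for 11 of the 22 genes. These were Aplnr and Mest (both without 4OHT 1), Ckb, Cxcl13, Dbp, Fmo2, Isg20, Itpka, Shisa6, Timp4 and Top2a. Each of these genes lost the call without 1 or more single arrays, Isg20, Itpka, Shisa6 and Top2a also lost it with the replicate block, and Isg20 with quantile normalization as well.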

How the results depend on the processing

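The counts of genes called with rosiglitazone after 4-hydroxytamoxifen (2574 higher, 2693 lower) and after ethanol (3191, 3623) stayed within 1.5 times under each of the 22 settings except a 2-fold minimum, which left 179 and 129, and 240 and 317. Leaving out 1 array gave 2078 to 2588 and 2054 to 2839 after 4-hydroxytamoxifen. The counts for the difference between the responses (116 above 0, 107 below 0) did not stay there: they were 192 and 201 with an intensity trend and robust eBayes, 198 and 198 with array weights, 200 and 181 among genes at or above the 50th percentile of level, where fewer genes were tested, and 12 and 12 with a 2-fold minimum. Leaving out 1 array gave 24 to 177 and 27 to 173. Apart from the array left out, the cause was not tested.

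With the replicate number as a block the counts were 2329 and 2437 after 4-hydroxytamoxifen and 59 and 57 for the difference. The deviations of same-numbered arrays of 4OHT and 4OHT_Rosi correlated at -0.0544 to 0.0528 over 3 pairs. For same-numbered arrays of all groups the range was -0.24 to 0.0786 over 18 pairs. No pairing by number was seen, but so few pairs cannot decide whether the replicates were paired.

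The 2-fold minimum was not applied to the named genes, and those whose rise or fall was smaller would lose the call under it. Of 244 named genes called after 4-hydroxytamoxifen, 218 kept the call under each other setting in which they were tested. The remaining 26 lost it under 1 or more of these settings, and none reversed. A kept call could still change in size. The difference ranged from -3.13 to -1.76 for Cyp2f2, from -2.39 to -1.05 for Prnd and from 1.04 to 1.94 for Acot4. For Sfrp2 it ranged from -1.49 to -0.64, for Alpl from -0.92 to -0.54 and for Socs3 from -0.72 to -0.315. These settings include the mean over all probe sets of a gene. Ucp1 and Cidea lay under the level of the median gene in 4OHT and 4OHT_Rosi, and their signal over background was not tested.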

Other observations

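Of 478 microRNA genes with a probe set annotated to them, 9 were called higher and 20 lower with rosiglitazone after 4-hydroxytamoxifen (6.07%, against 23.7% of all genes). Only 75 of the 478 had a level at or above that of the median gene, so they are a dimmer set than all genes, and the difference of the shares was not tested. The following genes were chosen after their values were seen. No source used here says which part of the transcript such a probe set reads, and mature microRNAs were not measured. The mature sequences (RefSeq, GRCm38.p6, 5′ to 3′) show what the loci encode, with the seed, bases 2 to 8, in capitals.
mmu-miR-3109-5p: aAUGGAUGcgaugguucccaugcu
mmu-miR-99a-5p: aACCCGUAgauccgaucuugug
mmu-let-7c-5p: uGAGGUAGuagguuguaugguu
These 3 have different seeds. Mir3109 lies within Anxa2, the gene of annexin A2, a calcium-dependent membrane-binding protein, at chr9:69456944-69457031. Its probe set read 5.58, 5.65 and 5.75 in 4OHT and 7.36, 7.07 and 7.46 in 4OHT_Rosi (1.64 ± 0.09, adjusted p = 5.84e-08 by limma). Anxa2 itself was read at 11.59, 11.61 and 11.62 and at 12.78, 12.76 and 12.79 (1.17 ± 0.06), so host and microRNA gene rose on every rosiglitazone array. Mir99a (chr16:77598936-77599000) and Mirlet7c-1 (chr16:77599657-77599750) are neighbours downstream of the long noncoding RNA gene Mir99ahg (chr16:77329328-77558428). All 3 were lower: Mir99a went from 6.45, 6.71 and 6.38 to 5.49, 5.85 and 5.58 (-0.87 ± 0.12), Mir99ahg from 7.03, 7.34 and 7.26 to 6.50, 6.40 and 6.40 (-0.78 ± 0.08), and Mirlet7c-1 fell by 0.49 ± 0.15 (adjusted p = 0.0303 by limma).

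Of 17 clock genes 4 were higher (23.5%, against 11.6% of all genes) and 2 were lower (11.8%, near the 12.1% of all genes). Bhlhe41, a repressor of the clock, went from 7.81, 7.60 and 7.63 to 8.90, 8.94 and 8.97 (1.26 ± 0.10), and Per3 fell by 0.63. The count higher was 2 without 4OHT 2 or 4OHT_Rosi 3, and the count lower was 1 without 4OHT 1, 4OHT 2 or 4OHT_Rosi 1 and 3 without 4OHT_Rosi 3. Of 21 p53 targets 5 fell (23.8%, against 12.1% of all genes), among them Trp53inp1 (-0.64 ± 0.07) and Eda2r (-0.59 ± 0.11). Of 17 genes of MHC class I and peptide loading 2 rose (11.8%) and 3 fell (17.6%), near the 11.6% and 12.1% of all genes, with H2-T23 at -0.60 ± 0.08 (adjusted p = 0.000139 by limma). The count higher was 1 without 4OHT 2, 4OHT 3 or 4OHT_Rosi 2, and the count lower was 5 without 4OHT 3. Among Prdm16 and its known partners 6 of 19 genes rose (31.6%, against 11.6% of all genes) and none fell, with a median of -0.01. Those named were Cebpb, Ppargc1a, Ppargc1b and Ppara, which are also described above with the PPARγ coregulators or the adipogenic factors. The corepressors Ctbp1 and Ctbp2 and the methyltransferase gene Ehmt1 were not called.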
